A study of Mus musculus with 59 samples.

Results

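The results below describe the paraventricular nucleus of the hypothalamus (PVN) of C57BL/6 mice 4 h after a single intraperitoneal injection of IP118/PY115 or of vehicle. The libraries were chosen by their titles, which name PVN and either IP118/PY115 or Vehicle: 10 treated and 10 vehicle libraries, 20 of the 59 in the series. The study concerns joint activation of the receptors for the gut hormones PYY and GLP-1, and the same mice also gave libraries of the arcuate nucleus (ARC) and of the solitary tract nucleus (NTS). Its title speaks of obese-diabetic mice, whereas the labels give the strain only. Frozen brains were cut at 10 µm, an area of 4 square mm of each region was collected by laser capture, and polyA RNA was sequenced. The comparison asks which genes differ in PVN between treated and vehicle mice. The dose, the age, sex and diet of the mice, and the identity of each peptide are not given in the sources used here. IP118/PY115 is therefore treated as 1 combined treatment.

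The PVN holds large neurons that release vasopressin and oxytocin from the posterior pituitary. It also holds smaller neurons that make corticotropin-releasing hormone (CRH) and thyrotropin-releasing hormone, which drive the anterior pituitary. CRH starts the hormonal cascade that ends in glucocorticoid release from the adrenal gland, and the glucocorticoid receptor then acts in many tissues as a transcription factor. PVN neurons with the melanocortin receptor MC4R restrain feeding and receive input from ARC and NTS.

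Library totals ran from 3964093 to 16244376 counts (median 10491077), with a median of 8612590 in vehicle and 12241201 in treated libraries. Levels are given as CPM, counts per 1000000 counts of the library total after TMM scaling. The dissections carried the genes that define the PVN in every library: Sim1, a transcription factor needed to form the nucleus, stood at 108 to 154 CPM with vehicle (median 137) and 98.02 to 147 CPM with treatment (median 130.4). Otp, another such factor, stood at 266 to 395 CPM with vehicle (median 357) and 293 to 374 CPM with treatment (median 337). The vasopressin gene Avp stood at 3049 to 12450.0 CPM with vehicle (median 5245) and 4203 to 8172 CPM with treatment (median 5784), and the oxytocin gene Oxt at 4400.0 to 8763 CPM with vehicle (median 7565) and 5494 to 9080.0 CPM with treatment (median 7250.0). The groups overlapped for all 4 genes.

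Vehicle library 1 and treated library 1 stood apart from their groups on the genes that differed. Of the 71 genes called higher with treatment below, treated 1 was the lowest treated library in 58, against 13.5% of all genes tested. Vehicle 1 was the highest vehicle library in 50 of the 71, against 8.81% of all genes. Vehicle 1 lay above the treated median in 12 of them, and treated 1 lay below the vehicle median in 34. Each of the 88 called genes was also placed by whether a library lay nearer the median of the other vehicle or of the other treated libraries. Both libraries lay nearer the opposite group in 56 genes and nearer their own in 4, which were Tmem200a, Kcnv1, Trim8 and Pspc1. All values use the deposited labels. Libraries were numbered here in deposited order within each group, so vehicle 1 is library 5465 and treated 1 is library 5467. Results are also given without vehicle 1 and treated 1. Those 2 libraries were singled out by the outcome itself, so p-values without them are too small. Larger folds, more calls and less overlap without them follow in part from that choice.

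Vehicle 10 and vehicle 8 stood apart in another way. Vehicle 10 lay far out on the first principal component of all genes (17% of the variance), and vehicle 8 on the second (14.2%). In vehicle 10, 76 ribosomal protein genes took 2.79% of the counts, against 1.32% to 1.79% in the other 19 libraries. Of the 71 rises, vehicle 8 was the lowest vehicle library in 25 and vehicle 10 in 18. Without vehicle 10 there were 97 calls and without vehicle 8 there were 25. The titles give library numbers 5553 to 5555 to vehicle 8, 9 and 10, and 5465 to 5484 to the other PVN libraries. The later block holds no treated PVN library. Without vehicle 8, 9 and 10 there were 12 calls, 10 of them among the 88, and all 88 kept their direction. That fit also has fewer vehicle libraries. The part of this numbering in the calls was not tested beyond leaving those libraries out.

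Of 13409 genes tested, 88 differed between treated and vehicle PVN (0.656%), 71 higher (0.529%) and 17 lower (0.127%) with IP118/PY115. A gene was called at a Benjamini-Hochberg adjusted p (FDR) under 0.05 by edgeR's quasi-likelihood test. The rises were small in size, with log2 fold changes from 0.23 to 1.86 and a median of 0.50, and 6 were at least 2-fold. The falls ran from -0.20 to -0.86 with a median of -0.42, and none was 2-fold. Before adjustment, 1253 genes (9.34%) had p under 0.05, and the median log2 fold change of all genes was -0.02. All 10 treated libraries lay above the vehicle median in 37 of the 71 rises and 9 of 10 in another 33. For the falls, all 10 treated libraries lay below the vehicle median in 16 of 17. The genes were called from these same libraries, so such counts follow in part from the call. The gene just inside the threshold was Cnksr2 (FDR = 0.0494) and the gene just outside was Irak3 (FDR = 0.0503). In tissue samples, fewer cells of a type and less RNA per cell cannot be told apart.

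**Figure D1:**
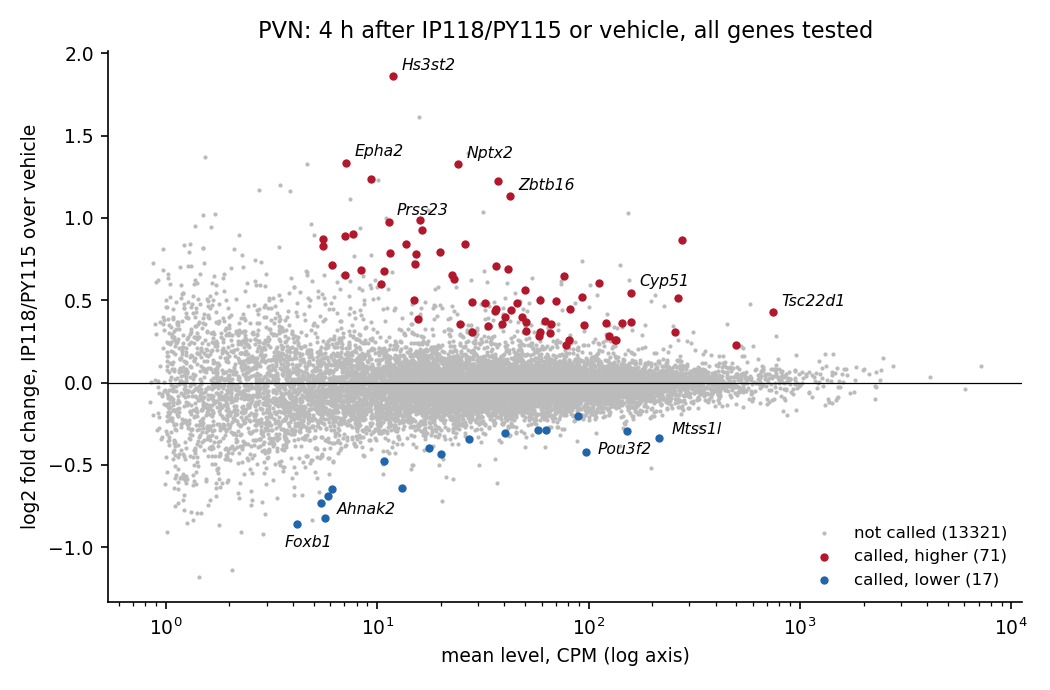
Log2 fold change of IP118/PY115 over vehicle in PVN (vertical axis) against the mean level in CPM on a log axis, 1 point for each of 13409 genes. Red points are the 71 genes called higher and blue points the 17 called lower. The called genes sit at the edge of the cloud, with Hs3st2 highest at 1.86 and Foxb1 lowest at -0.86.

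Without vehicle 1 and treated 1, 429 of 13342 genes were called (3.22%), 309 higher (2.32%) and 120 lower (0.899%), and these included all 88. The change was larger without them in 87 of the 88, with a median log2 fold change of 0.63 over the 71 rises and -0.52 over the 17 falls. The fold moved by over 1.5 times in 1 of the 88, Hs3st2. With all 20 libraries, treated and vehicle values did not overlap in 1 gene (0.00746% of all genes tested), a fall. Without these 2 libraries they did not overlap in 96 genes (0.716%), of which 41 were among the 71 rises and 7 among the 17 falls. Both libraries were singled out on the called genes, so the larger changes, added calls and lesser overlap follow in part from leaving them out.

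The count of calls moved with single libraries, though the direction of all 88 genes held in every fit. It rose to 276 without vehicle 1 and to 263 without treated 1. It fell to 39, 10, 17, 18, 25 and 37 without vehicle 2, 3, 4, 6, 8 and 9. It fell to 43, 19, 56, 30, 32, 9, 8 and 9 without treated 2, 3, 4, 5, 6, 7, 8 and 10. In the other 4 fits it lay between 70 and 102. Of the 88 genes, 7 were called in all 20 fits that left out 1 library (Prss23, Tmem200a, Kcnv1, Igfbp3, Atp10a, Zbtb16 and Ahnak2), and 32 in at least 10 of them. With log10 library total as a covariate 6 genes were called, and with the mean level of oligodendrocyte markers as a covariate 8, all of them among the 88. Ahnak2 was in neither set (FDR = 0.107 and 0.0735 by edgeR). Without vehicle 8, 9 and 10, Ahnak2 (FDR = 0.0642) and Zbtb16 (FDR = 0.0548) were not called by edgeR. The median library total was lower in vehicle than in treated PVN, and the totals overlapped. Vehicle 1, the highest vehicle library in 50 of the 71 rises, had the largest total of all 20. The part of library totals in the calls was not tested beyond that covariate.

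**Figure D2:**
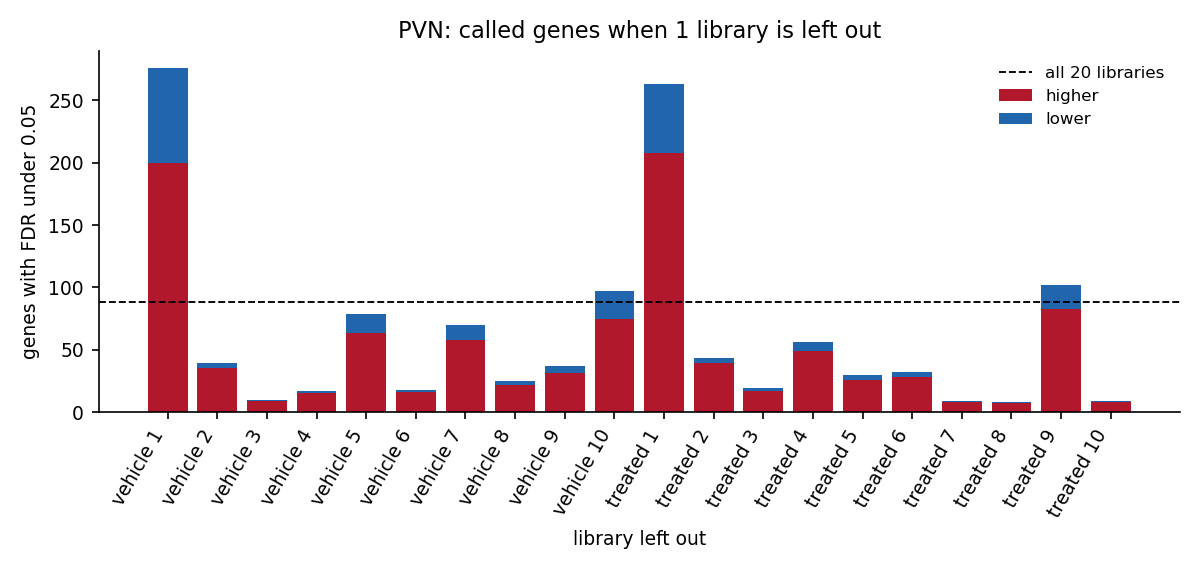
Number of genes with FDR under 0.05 in PVN (vertical axis) when 1 of the 20 libraries was left out (horizontal axis), split into higher (red) and lower (blue). The dashed line is the count with all 20 libraries, 88. Leaving out vehicle 1 or treated 1 gave 276 and 263 calls, and the other 18 fits gave 8 to 102.

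The genes with the smallest p encode secreted and membrane proteins. Prss23, which encodes a secreted serine protease, stood at 5.89 to 11.1 CPM with vehicle (median 7.21) and 8.73 to 21.4 CPM with treatment (median 15.2). The ranges met only through treated 1, at 8.73 CPM, and vehicle 5, since the other 9 treated libraries began at 13.1 CPM. Its rise was close to 2-fold (log2 fold change 0.98 ± 0.13, FDR = 6.5e-04). Tmem200a, a membrane protein gene, stood at 6.98 to 9.88 CPM with vehicle (median 8.09) and 9.62 to 17.3 CPM with treatment (median 12.9) (log2 fold change 0.68 ± 0.10, FDR = 0.00226). Here vehicle 1 and treated 1 sat with their own groups, at 7.96 and 14.7 CPM, and the groups overlapped only at their edges. Kcnv1, a silent potassium channel subunit that modifies other channels, stood at 5.56 to 16.8 CPM with vehicle (median 8.83) and 14.01 to 21.02 CPM with treatment (median 17.1) (log2 fold change 0.84 ± 0.14, FDR = 0.004605). Vehicle 10 alone reached the treated range, and vehicle 1 and treated 1 again sat with their own groups. Igfbp3, a binding protein for insulin-like growth factors, stood at 9.22 to 13.9 CPM with vehicle (median 10.9) and 11.8 to 27.1 CPM with treatment (median 18.9) (log2 fold change 0.78 ± 0.13, FDR = 0.004605). Atp10a, a flippase that moves phospholipids across the plasma membrane, stood at 11.9 to 26.4 CPM with vehicle (median 16.3) and 20.9 to 33.2 CPM with treatment (median 27.7) (log2 fold change 0.65 ± 0.11, FDR = 0.00703). For both genes the groups did not overlap once vehicle 1 and treated 1 were left out, and all 10 treated libraries lay above the vehicle median for all 5. On GRCm38, Prss23 (ENSMUSG00000039405) lies at chr7:89507783-89527187, Tmem200a (ENSMUSG00000049420) at chr10:25912331-26079052, Kcnv1 (ENSMUSG00000022342) at chr15:45106284-45114920, Igfbp3 (ENSMUSG00000020427) at chr11:7206086-7213923 and Atp10a (ENSMUSG00000025324) at chr7:58656166-58829420.

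**Figure D3:**
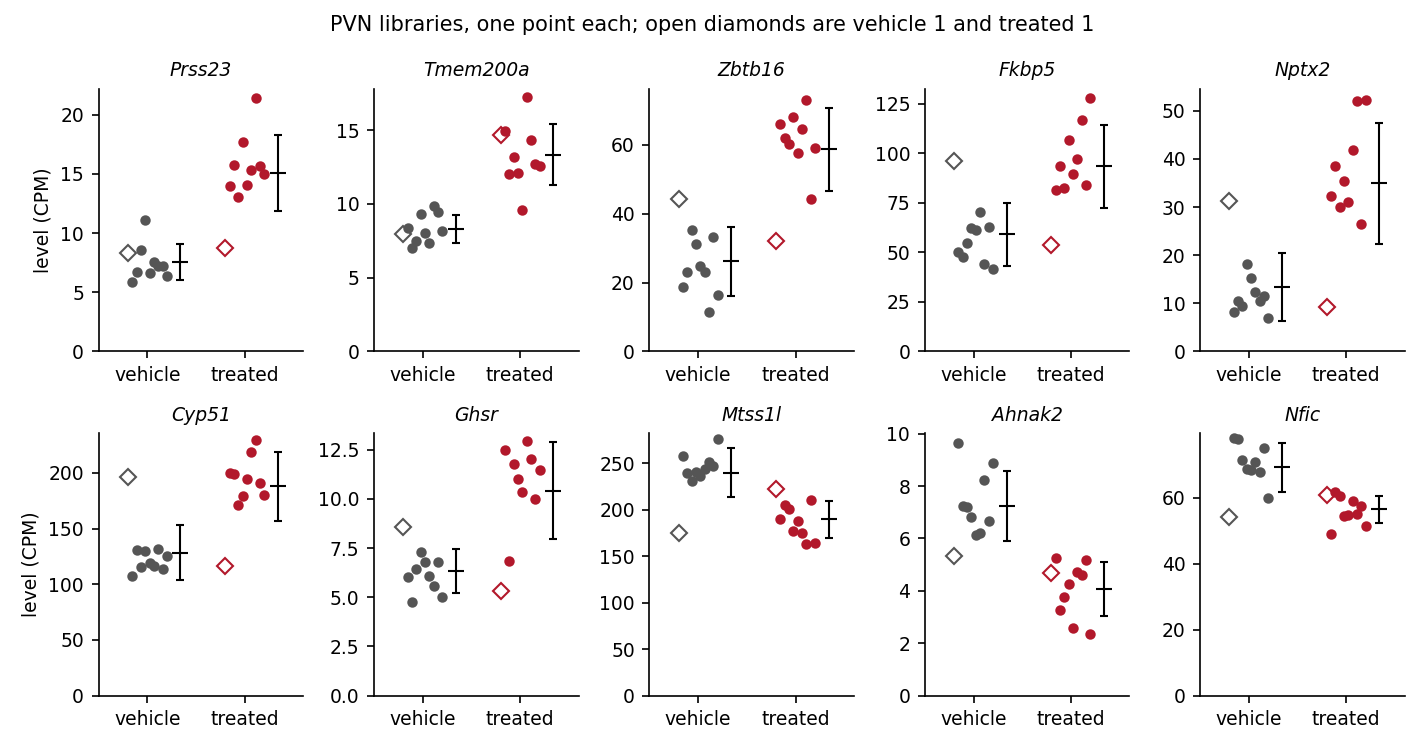
Levels in CPM (vertical axes, from 0) of 10 genes in the 10 vehicle (grey) and 10 treated (red) PVN libraries, with the mean and SD of each group as black bars. Open diamonds mark vehicle 1 and treated 1, which lie toward the other group for Zbtb16, Fkbp5, Nptx2, Cyp51 and Ghsr but not for Tmem200a.

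The called genes are grouped by role here and below. Only called genes were given a role, so the share of each role among all genes tested is unknown. The counts by role therefore do not show that a role is over-represented, and most calls were rises. Secreted, matrix and adhesion genes contributed 10 called genes, 9 higher, Prss23 and Igfbp3 among them, and 1 lower. The largest rise of all was in Hs3st2, which adds 3-O-sulfates to heparan sulfate chains. It stood at 1.44 to 16.2 CPM with vehicle (median 3.27) and 2.96 to 30.1 CPM with treatment (median 19.7) (log2 fold change 1.86 ± 0.38, FDR = 0.02995). Vehicle 1, at 16.2 CPM, and treated 1, at 2.96 CPM, were the highest vehicle and the lowest treated library. Without them the log2 fold change was 2.54, and the other 9 treated libraries began at 12.9 CPM against a vehicle maximum of 5.49 CPM. The ephrin receptor gene Epha2 rose from 3.95 ± 1.98 to 10.3 ± 5.03 CPM (1.34 ± 0.28), while Ephb3, which encodes another ephrin receptor, fell from 7.54 ± 1.68 to 4.74 ± 0.945 CPM (-0.65 ± 0.14). Levels given in this way are means ± SD over 10 libraries per group, and bracketed values here and below are log2 fold changes ± SE. The matricellular protein gene Ccn2 rose from 5.45 ± 2.13 to 13.2 ± 6.68 CPM (1.23 ± 0.27), and the cadherin gene Cdh6 from 4.89 ± 1.84 to 9.27 ± 3.04 CPM (0.89 ± 0.20). Edn3, which encodes endothelin 3, rose from 14.3 ± 3.73 to 25.2 ± 7.29 CPM (0.79 ± 0.17). The remaining rises of this group were the secreted protein gene Ism1 (0.78 ± 0.18) and the engulfment receptor gene Megf10 (0.40 ± 0.09).

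Genes for channels, receptors and synaptic proteins contributed 11 called genes, all higher, including Kcnv1. Nptx2, a secreted pentraxin that gathers glutamate receptors at synapses and is induced by neuronal activity, stood at 6.93 to 31.2 CPM with vehicle (median 11) and 9.24 to 52.2 CPM with treatment (median 33.9) (log2 fold change 1.33 ± 0.28, FDR = 0.02995). Apart from vehicle 1 and treated 1, every treated library was above every vehicle library. Ghsr, the receptor for the hunger hormone ghrelin, stood at 4.74 to 8.57 CPM with vehicle (median 6.26) and 5.34 to 12.9 CPM with treatment (median 11.2) (log2 fold change 0.69 ± 0.14, FDR = 0.0285). Treated 1 and 1 other treated library lay within the vehicle range. Nmbr, the receptor for neuromedin B, rose from 3.99 ± 1.62 to 7.09 ± 1.31 CPM (0.83 ± 0.19). Pde9a, which breaks down cyclic GMP, stood at 19.6 to 29.6 CPM with vehicle (median 22.8) and 24.8 to 42.01 CPM with treatment (median 31.4) (log2 fold change 0.49 ± 0.09, FDR = 0.0206), and Akap7, which anchors protein kinase A, rose from 88.8 ± 22.1 to 136 ± 23.4 CPM (0.61 ± 0.13). The potassium channel gene Kcna5 rose from 106 ± 15.1 to 137 ± 17.8 CPM (0.36 ± 0.08), and Neto1, an auxiliary subunit of glutamate receptors, from 29.3 ± 4.36 to 37.4 ± 4.35 CPM (0.34 ± 0.08). Rapgef2 and Sipa1l2, which turn the small GTPase Rap on and off, rose by 0.29 and 0.45 on the log2 scale, and the synaptic scaffold gene Cnksr2 by 0.48.

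Transcription and chromatin genes contributed 16 called genes, 8 higher and 8 lower, with no share over all genes tested to set beside them. Zbtb16, a zinc finger repressor induced by glucocorticoids, stood at 11.3 to 44.4 CPM with vehicle (median 23.9) and 32.04 to 73.1 CPM with treatment (median 61.2) (log2 fold change 1.13 ± 0.19, FDR = 0.0149). The groups did not overlap without vehicle 1 and treated 1. Bcl6, another zinc finger repressor, stood at 10.3 to 28.3 CPM with vehicle (median 18.2) and 22.01 to 45.5 CPM with treatment (median 32.4) (log2 fold change 0.84 ± 0.16, FDR = 0.0234), and the same held there. Tsc22d1, a leucine zipper regulator and the called gene with the highest mean level, rose from 633 ± 89.4 to 853 ± 122 CPM (0.43 ± 0.08). Ets2 (0.26 ± 0.06), the BMP effector Smad1 (0.36 ± 0.08), the lysine methyltransferase gene Setd7 (0.37 ± 0.08) and the zinc finger genes Zfp516 (0.71 ± 0.15) and Zfp711 (0.48 ± 0.11) were the other rises.

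Among the falls, Pou3f2, a POU factor of PVN neurons, stood at 125 to 208 CPM with vehicle (median 165) and 113 to 153 CPM with treatment (median 138) (log2 fold change -0.30 ± 0.07, FDR = 0.0475). Without vehicle 1 and treated 1 the groups did not overlap. Nfic, a nuclear factor I gene, stood at 54.2 to 78.2 CPM with vehicle (median 69.9) and 49.2 to 61.8 CPM with treatment (median 56.4) (log2 fold change -0.29 ± 0.06, FDR = 0.02995), and Zfp703, a zinc finger repressor, at 15 to 24.02 CPM with vehicle (median 19.8) and 13.2 to 17.1 CPM with treatment (median 14.9) (log2 fold change -0.40 ± 0.09, FDR = 0.02995). For both, vehicle 1 was the lowest vehicle library, and the ranges overlapped with and without the libraries numbered 1. Neurod2 (-0.73 ± 0.17) and Foxb1 (-0.86 ± 0.19), both neuronal transcription factor genes, had the largest falls of this group and were low in both groups, Foxb1 with a mean of 2.93 CPM in treated libraries. The size of the Foxb1 fall leaned on vehicle 8 and vehicle 10, at 9.27 and 8.735 CPM. The other vehicle libraries ran from 3.43 to 5.82 CPM and the treated libraries from 2.005 to 4.19 CPM. Cxxc5 stood at 69.6 to 139.7 CPM with vehicle (median 113) and 70.2 to 106 CPM with treatment (median 81.9) (-0.42 ± 0.10), Zfp467 at 22.4 to 35.7 CPM with vehicle (median 30.9) and 19.6 to 28.5 CPM with treatment (median 24.4) (-0.34 ± 0.08) and Bahcc1 at 15.1 to 27.5 CPM with vehicle (median 22.9) and 12.2 to 21.1 CPM with treatment (median 18.1) (-0.43 ± 0.10). In these 3 genes vehicle 1 was the lowest vehicle library, and for Cxxc5 it was the lowest of all 20.

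Signalling genes for kinases, small GTPases, ubiquitin transfer and cell survival contributed 13 called genes, 10 higher and 3 lower. Map3k6, a kinase of the stress-activated MAP kinase cascade, stood at 2.94 to 8.14 CPM with vehicle (median 5.14) and 5.34 to 15.7 CPM with treatment (median 9.91) (log2 fold change 0.90 ± 0.17, FDR = 0.0225), and Stk38l, a kinase related to the Hippo pathway, at 31.9 to 58.8 CPM with vehicle (median 39.3) and 38.6 to 69.7 CPM with treatment (median 62.7) (log2 fold change 0.56 ± 0.11, FDR = 0.0225). Neither gene's groups overlapped without vehicle 1 and treated 1. The GTPase genes Rhob (0.31 ± 0.07) and Rasl11b (0.99 ± 0.21), the kinase gene Pim3 (0.31 ± 0.07), the ubiquitin ligase gene Cbl (0.35 ± 0.08), the deubiquitinase family gene Usp54 (0.28 ± 0.06) and the survival gene Bcl2l1 (0.26 ± 0.06) rose. So did the scaffold gene Sh3rf1 (0.30 ± 0.07) and Tbc1d8b (0.92 ± 0.19). The falls were Inka2, which encodes a kinase inhibitor and stood at 4.41 to 10.5 CPM with vehicle (median 6.78) and 3.002 to 5.63 CPM with treatment (median 4.24) (-0.69 ± 0.15), Trim8, a ubiquitin ligase gene, at 57.1 to 77.01 CPM with vehicle (median 62.2) and 45.5 to 62.7 CPM with treatment (median 50.9) (-0.29 ± 0.06), and the exchange factor gene Arhgef19, at 9.15 to 15.7 CPM with vehicle (median 13.03) and 7.29 to 11.5 CPM with treatment (median 8.52) (-0.47 ± 0.11).

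Enzyme, transporter and lipid genes contributed 6 called genes, all higher. Cyp51, the sterol demethylase of cholesterol synthesis, stood at 108 to 196 CPM with vehicle (median 122) and 116 to 229 CPM with treatment (median 193) (log2 fold change 0.55 ± 0.11, FDR = 0.0252). Vehicle 1 and treated 1 exchanged places here, at 196 and 116 CPM, and the other 18 libraries did not overlap. Of the 23 cholesterol synthesis genes tested, Cyp51 was the 1 called gene, 7 had log2 values above 0 and the median was -0.04. Sqle (-0.05 ± 0.06), which encodes another enzyme of the pathway, was not called. Besides Atp10a and Cyp51, the enzyme and transporter genes called were Paqr5, a membrane progestin receptor gene, at 3.11 to 6.55 CPM with vehicle (median 4.28) and 5.12 to 9.94 CPM with treatment (median 7.85) (log2 fold change 0.71 ± 0.14, FDR = 0.0260), the zinc importer gene Slc39a14 (0.45 ± 0.09), Tpmt (0.65 ± 0.15) and Srxn1, which repairs oxidised peroxiredoxins (0.87 ± 0.19). Rises in genes for RNA and DNA processing numbered 6, among them the repair nuclease gene Ercc5 (0.50 ± 0.10), the paraspeckle genes Pspc1 (0.23 ± 0.05) and Rbm14 (0.36 ± 0.08), Znhit6 (0.30 ± 0.07) and Rbmxl1 (0.39 ± 0.09). Rbmxl1 is a near copy of Rbmx, so its value is uncertain.

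The secretory pathway gene Tfg stood at 112 to 139.8 CPM with vehicle (median 122) and 128 to 164 CPM with treatment (median 147) (log2 fold change 0.26 ± 0.05, FDR = 0.0234), and the cilium transport gene Ift57 rose from 58.3 ± 11.01 to 82.5 ± 12.99 CPM (0.49 ± 0.10). Both cytoskeletal genes called were lower. Mtss1l, which bends membranes and organises actin, stood at 175 to 277 CPM with vehicle (median 242) and 164 to 222 CPM with treatment (median 189) (log2 fold change -0.34 ± 0.07, FDR = 0.0234), with vehicle 1 well below the other vehicle libraries, and the actin-binding gene Ablim1 at 88.9 to 105 CPM with vehicle (median 94.6) and 74.9 to 89.4 CPM with treatment (median 84.1) (log2 fold change -0.20 ± 0.05, FDR = 0.0435). The remaining 21 called genes have less settled roles, and 18 of them rose. They include Tmem151b, at 45.4 to 65.8 CPM with vehicle (median 53.7) and 53.7 to 80.04 CPM with treatment (median 71.2) (log2 fold change 0.37 ± 0.07, FDR = 0.0234), Tmcc3, at 90.2 to 155 CPM with vehicle (median 126) and 134 to 185 CPM with treatment (median 164) (log2 fold change 0.36 ± 0.07, FDR = 0.0251), and Fam107b, with a rise from 21.99 ± 11.99 to 52.97 ± 16.6 CPM (1.22 ± 0.26). The falls among them were the scaffold gene Ahnak2, at 5.33 to 9.65 CPM with vehicle (median 7.002) and 2.37 to 5.27 CPM with treatment (median 4.43) (log2 fold change -0.83 ± 0.15, FDR = 0.0206), Plekho2, at 11.3 to 26.3 CPM with vehicle (median 15.4) and 7.57 to 14.4 CPM with treatment (median 9.99) (log2 fold change -0.64 ± 0.14, FDR = 0.0285), and 1190002N15Rik, at 37.8 to 51.4 CPM with vehicle (median 44.1) and 31.5 to 41.4 CPM with treatment (median 35.7) (-0.31 ± 0.07). Ahnak2 was the 1 gene whose groups did not overlap with all 20 libraries.

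Promoters of called genes were searched for a cyclic AMP response element, TGACGTCA, and for a glucocorticoid response element, GNACANNNTGTNC, both of which read the same on the 2 strands. The windows run from 250 bases before to 50 bases after the start of the RefSeq gene on GRCm38.p6. The first element was present in 4 of the 57 rises with an entry (7.02%; Stk38l, Ift57, Hs3st2 and Epha2), in 0 of 11 falls and in 344 of 10537 genes tested (3.26%). The second was present in 2 of 57 rises (3.51%; Map3k6 and Kcna5), in 0 of 11 falls and in 36 of 10537 genes (0.342%). A match is a description of these letters and no evidence of binding. The 6 windows below belong to the 3 called genes of smallest p that hold an element, in capitals, and to the 3 called genes of smallest p with an entry. They lie at chr4:133240568-133240867, plus strand, chr6:146724680-146724979, plus strand, chr16:49699044-49699343, plus strand, chr7:89527138-89527437, minus strand, chr10:26079003-26079302, minus strand and chr11:7213874-7214173, minus strand.
Map3k6: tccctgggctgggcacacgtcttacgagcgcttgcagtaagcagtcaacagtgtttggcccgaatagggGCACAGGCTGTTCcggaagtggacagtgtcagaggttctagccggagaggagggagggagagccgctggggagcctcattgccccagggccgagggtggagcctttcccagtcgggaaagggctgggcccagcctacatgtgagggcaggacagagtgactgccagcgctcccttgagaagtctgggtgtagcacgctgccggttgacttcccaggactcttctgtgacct
Stk38l: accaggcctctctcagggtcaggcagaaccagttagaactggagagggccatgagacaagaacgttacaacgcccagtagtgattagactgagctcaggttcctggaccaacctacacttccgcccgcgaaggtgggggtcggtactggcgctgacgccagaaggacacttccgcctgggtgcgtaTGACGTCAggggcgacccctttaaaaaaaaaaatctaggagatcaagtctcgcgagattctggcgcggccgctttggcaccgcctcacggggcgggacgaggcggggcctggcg
Ift57: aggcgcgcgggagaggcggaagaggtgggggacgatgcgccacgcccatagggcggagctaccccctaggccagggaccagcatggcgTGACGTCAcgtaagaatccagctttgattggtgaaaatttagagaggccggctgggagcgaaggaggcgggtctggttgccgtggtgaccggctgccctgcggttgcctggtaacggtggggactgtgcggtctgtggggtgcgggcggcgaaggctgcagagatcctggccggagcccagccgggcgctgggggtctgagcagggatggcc
Prss23: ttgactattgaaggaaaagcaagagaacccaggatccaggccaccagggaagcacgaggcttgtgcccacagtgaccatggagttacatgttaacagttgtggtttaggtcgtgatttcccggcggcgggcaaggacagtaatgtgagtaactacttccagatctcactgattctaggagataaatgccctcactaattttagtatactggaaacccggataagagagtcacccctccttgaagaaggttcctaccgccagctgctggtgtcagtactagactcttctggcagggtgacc
Tmem200a: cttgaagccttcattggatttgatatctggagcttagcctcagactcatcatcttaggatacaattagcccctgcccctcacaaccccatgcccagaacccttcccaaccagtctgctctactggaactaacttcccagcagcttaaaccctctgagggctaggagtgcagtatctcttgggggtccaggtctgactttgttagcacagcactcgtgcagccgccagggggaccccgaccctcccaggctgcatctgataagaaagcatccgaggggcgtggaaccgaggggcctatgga
Igfbp3: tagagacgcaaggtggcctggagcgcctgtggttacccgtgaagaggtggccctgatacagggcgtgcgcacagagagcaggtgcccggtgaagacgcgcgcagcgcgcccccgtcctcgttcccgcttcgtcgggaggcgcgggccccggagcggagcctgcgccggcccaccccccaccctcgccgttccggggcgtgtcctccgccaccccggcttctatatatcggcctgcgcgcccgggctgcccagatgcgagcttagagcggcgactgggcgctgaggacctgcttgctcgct
In Map3k6 the glucocorticoid element GCACAGGCTGTTC begins 181 bases before the start. In Stk38l and Ift57 the cyclic AMP element begins 64 and 162 bases before it. The windows of Prss23, Tmem200a and Igfbp3, the 3 genes of smallest p with an entry, hold neither element.

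Genes known to respond to glucocorticoids had mostly positive log2 fold changes, in a list chosen with results of these data known. Of 24 members tested, 23 had log2 values above 0 and the median was 0.45, against 5691 of all 13409 genes above 0 and a median of -0.02. By edgeR with all 20 libraries, 4 members rose and none fell, where 0.529% of all genes tested rose. These were Zbtb16, Map3k6, Bcl6 and Fkbp5, which encodes a co-chaperone that restrains the glucocorticoid receptor. Fkbp5 stood at 41.7 to 96.1 CPM with vehicle (median 57.9) and 53.9 to 128 CPM with treatment (median 91.6) (log2 fold change 0.65 ± 0.15, FDR = 0.0449), and vehicle 1, at 96.1 CPM, and treated 1, at 53.9 CPM, were the highest and the lowest library of their groups. Fkbp5 was called in 3 of the 20 fits that left out 1 library. Without vehicle 1 and treated 1 the median of the list was 0.59 and 20 members were called, all higher, where 2.32% of all genes were called higher in that fit. Those 2 libraries were singled out on called genes that include members of this list, so the added calls follow in part from that choice.

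Well-known glucocorticoid targets outside the call had vehicle 1 or treated 1 at the far end of their groups. The values given without these 2 libraries carry the same limit, and their FDRs are too small. Tsc22d3, which encodes the anti-inflammatory leucine zipper GILZ, stood at 82.7 to 162 CPM with vehicle (median 97.9) and 79.1 to 164 CPM with treatment (median 147) (log2 fold change 0.42 ± 0.12, FDR = 0.1396). Treated 1 was the lowest of all 20 libraries and vehicle 1 the highest vehicle library, and without them the log2 fold change was 0.58, FDR = 8.1e-06 by edgeR. The kinase gene Sgk1 stood at 23.3 to 48.5 CPM with vehicle (median 36.97) and 17.7 to 57.1 CPM with treatment (median 52.1) (log2 fold change 0.37 ± 0.17, FDR = 0.476), with treated 1 lowest of all 20 libraries (without the 2 libraries 0.53, FDR = 0.00327 by edgeR). The clock gene Per1 stood at 37.02 to 119.8 CPM with vehicle (median 64.5) and 41.7 to 126 CPM with treatment (median 104) (log2 fold change 0.48 ± 0.19, FDR = 0.355; without the 2 libraries 0.60, FDR = 0.0436 by edgeR). The cell-cycle inhibitor gene Cdkn1a stood at 6.22 to 51.4 CPM with vehicle (median 9.24) and 8.66 to 60.95 CPM with treatment (median 41.02) (log2 fold change 1.40 ± 0.39, FDR = 0.125). Its vehicle 1 value, 51.4 CPM, was far above the other vehicle libraries, which ended at 17.6 CPM, and its treated 1 value, 8.66 CPM, was far below the other treated libraries. Without them the log2 fold change was 2.07, FDR = 2.8e-06 by edgeR. Dusp1 (-0.22 ± 0.12), a phosphatase gene that glucocorticoids and activity both induce, was the 1 member below 0. The metallothionein gene Mt1 (0.10 ± 0.16) was close to 0.

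Nr3c1, the gene of the glucocorticoid receptor itself, stood at 118 to 329 CPM with vehicle (median 244) and 138 to 243 CPM with treatment (median 152) (log2 fold change -0.52 ± 0.16, FDR = 0.193). All 10 treated libraries lay below the vehicle median. Vehicle 1 was the lowest of all 20 libraries and treated 1 the highest treated library, and without them the log2 fold change was -0.68, FDR = 0.00166 by edgeR. Of the 12 steroid receptor genes and local activators tested, none was called with all 20 libraries and 1, Nr3c1, without these 2.

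**Figure D4:**
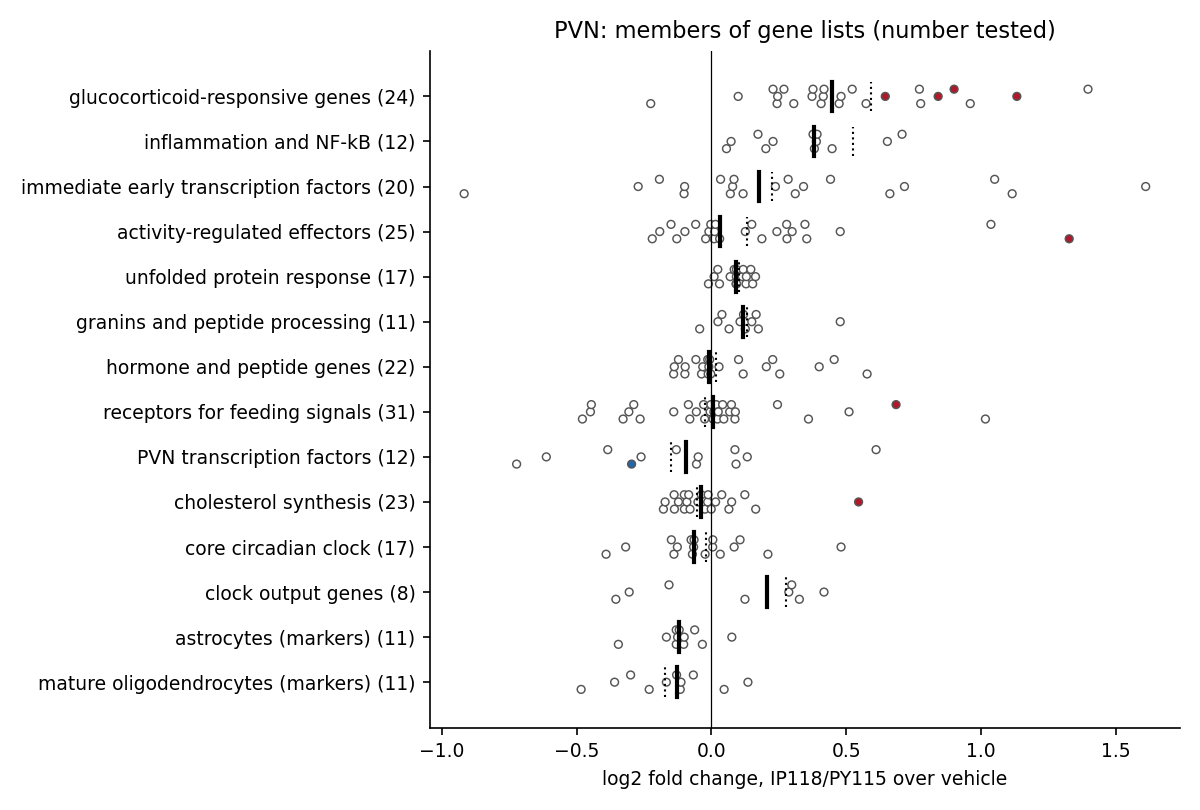
Log2 fold change of IP118/PY115 over vehicle in PVN (horizontal axis) for the tested members of 14 gene lists (vertical axis), 1 point per gene. Filled points are called, red higher and blue lower. Solid bars are list medians with all libraries and dotted bars the medians without vehicle 1 and treated 1. The list of glucocorticoid-responsive genes has the highest median of those drawn, 0.45.

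Activity-dependent genes gave a mixed picture. Of 20 immediate early transcription factor genes tested, 15 had log2 values above 0, with a median of 0.18 and no call by edgeR. Fos, the usual marker of recent neuronal activity, stood at 28.2 to 82.6 CPM with vehicle (median 62.1) and 23.3 to 102 CPM with treatment (median 45.9) (log2 fold change -0.10 ± 0.25, FDR = 0.944), and all 10 vehicle libraries lay inside the treated range. Its relative Fosb stood at 1.44 to 21 CPM with vehicle (median 3.67) and 3.25 to 47.4 CPM with treatment (median 24.5) (log2 fold change 1.61 ± 0.47, FDR = 0.163), and vehicle 1, at 21 CPM, was the highest vehicle library. Without vehicle 1 and treated 1 Fosb was called (2.11, FDR = 0.00316 by edgeR), as were Maff (1.51, FDR = 7.5e-05), Fosl2 (0.83, FDR = 0.0243) and Klf2 (0.55, FDR = 0.00837). Npas4, which is induced by calcium influx, stood at 5.63 ± 3.81 CPM (vehicle) and 6.901 ± 6.21 CPM (treated) (log2 fold change 0.29 ± 0.46, FDR = 0.908), and Nr4a1 at 57.9 ± 34.3 CPM (vehicle) and 75.4 ± 40.1 CPM (treated) (log2 fold change 0.34 ± 0.40, FDR = 0.871). The sign for Npas4 changed with the processing. For both genes the SD was more than 0.5 of the mean in each group.

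Of 25 activity-regulated effector genes, 16 had log2 values above 0, the median was 0.03 and Nptx2 was the 1 call. Arc, which acts at active synapses, stood at 9.65 to 38.2 CPM with vehicle (median 20.4) and 10.5 to 68.9 CPM with treatment (median 40.9) (log2 fold change 1.04 ± 0.27, FDR = 0.0878; without the 2 libraries 1.32, FDR = 1.8e-04 by edgeR). Vgf, a secreted neuropeptide precursor gene, stood at 263 to 677 CPM with vehicle (median 466) and 436 to 914 CPM with treatment (median 692) (log2 fold change 0.48 ± 0.16, FDR = 0.227), with 9 of 10 treated libraries above the vehicle median. Bdnf (-0.00 ± 0.12) and the prodynorphin gene Pdyn (-0.01 ± 0.09) had log2 values near 0.

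The hormone genes of the nucleus were not called. Of 22 hormone and peptide genes tested, 9 had log2 values above 0, with a median of -0.01. Crh stood at 151 to 307 CPM with vehicle (median 201) and 118 to 331 CPM with treatment (median 249.5) (log2 fold change 0.20 ± 0.16, FDR = 0.792), with treated 1 the lowest and vehicle 1 the highest library of its group. Without them the log2 fold change was 0.36, FDR = 0.117 by edgeR. Avp, at a log2 fold change of -0.04 ± 0.22, Oxt at 0.10 ± 0.12, the thyrotropin-releasing hormone gene Trh at -0.10 ± 0.07 and the somatostatin gene Sst at 0.25 ± 0.27 likewise did not pass. The signs for Avp, Oxt and Trh changed with the processing or with a library left out. The SD of Avp in vehicle libraries was 2897 CPM on a mean of 6124, so that only large changes could have been seen. Granins and peptide-processing genes had log2 values above 0 in 10 of 11 members, with a median of 0.12 and no call by edgeR.

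Receptors for feeding signals, including those that the peptides of this study address, gave 1 call in 31 genes tested, Ghsr. The median was 0.01 and 16 members had log2 values above 0. Glp1r, the GLP-1 receptor gene, stood at 5.15 to 24.1 CPM with vehicle (median 15.6) and 11.6 to 20.6 CPM with treatment (median 14.9) (log2 fold change 0.07 ± 0.21, FDR = 0.9596). The Y2 receptor gene Npy2r, whose product binds PYY, stood at 19.1 to 51.4 CPM with vehicle (median 26.8) and 15.6 to 34.4 CPM with treatment (median 23.2) (log2 fold change -0.31 ± 0.16, FDR = 0.603). All 10 treated libraries lay inside the vehicle range of Glp1r, and 1 of 10 lay above the vehicle median of Npy2r. The Y1 receptor gene Npy1r (0.01 ± 0.11, FDR = 0.996), Mc4r (-0.00 ± 0.08, FDR = 0.999) and the calcitonin receptor gene Calcr (0.03 ± 0.06, FDR = 0.942) had values close to 0 by edgeR. The signs for Mc4r and Glp1r changed with the processing and with libraries left out, and those for Npy1r and Calcr only with libraries left out. The vasopressin receptor gene Avpr1b was low, at 0.9799 ± 0.382 CPM (vehicle) and 2.004 ± 0.706 CPM (treated) (log2 fold change 1.02 ± 0.25, FDR = 0.0609), and 9 of 10 treated libraries lay above the vehicle median.

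Of 12 transcription factor genes of the PVN, 4 had log2 values above 0, the median was -0.09 and 1 was called, Pou3f2, lower. Sim1 (-0.05 ± 0.07, FDR = 0.893) and Otp (-0.05 ± 0.06, FDR = 0.888) did not pass by edgeR. Uncx stood at 25 ± 10.8 CPM (vehicle) and 15.4 ± 3.62 CPM (treated) (log2 fold change -0.72 ± 0.21, FDR = 0.136) and Nkx6-2 at -0.61 on the log2 scale, and both were called lower without vehicle 1 and treated 1 (-0.85, FDR = 0.01299, and -0.87, FDR = 1.0e-04, by edgeR).

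Other stress-response lists held no call. Of 17 unfolded protein response genes, 16 had log2 values above 0, with a median of 0.09 and no call. The chaperone gene Hspa5 stood at 959 to 1336 CPM with vehicle (median 1178) and 1200.0 to 1447 CPM with treatment (median 1262) (log2 fold change 0.13 ± 0.05, FDR = 0.329), and Xbp1 at 177 to 221 CPM with vehicle (median 206) and 212 to 234 CPM with treatment (median 222) (log2 fold change 0.13 ± 0.05, FDR = 0.255). For both, all 10 treated libraries lay above the vehicle median while the ranges overlapped. All 12 inflammation and NF-kB genes tested had log2 values above 0, with a median of 0.38 and no call by edgeR. Il1r1, the interleukin 1 receptor gene, stood at 4.64 ± 2.31 CPM (vehicle) and 7.91 ± 5.13 CPM (treated) (log2 fold change 0.71 ± 0.30, FDR = 0.412), and Nfkbia, which encodes the NF-kB inhibitor and is also a glucocorticoid target, at 30.6 ± 7.69 CPM (vehicle) and 40.4 ± 7.64 CPM (treated) (log2 fold change 0.38 ± 0.13, FDR = 0.276). Without the 2 libraries numbered 1, both were called higher. Il1b, Il6, Tnf and Ccl2 had too few counts to be tested. Lcn2, a member of this list and of the glucocorticoid list, met the filter in too few libraries to be tested. Its mean was 0.192 CPM with vehicle and 7.62 CPM with treatment, and the treated mean can rest on a part of the libraries.

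Markers of other cells and of neighbouring tissue were set beside these results. Astrocyte markers had log2 values below 0 in 10 of 11 genes (median -0.12), with summed levels of 2678 to 4633 CPM for vehicle and 2695 to 3213 CPM for treated. Mature oligodendrocyte markers had values below 0 in 9 of 11 (median -0.13), with sums of 939 to 1361 CPM for vehicle and 801 to 1303 CPM for treated. Red blood cell genes had values above 0 in 5 of 5 (median 0.41), with sums of 34.1 to 65.03 CPM for vehicle and 29.4 to 126 CPM for treated. Neuronal markers had a median of -0.03, microglial markers of 0.02 and endothelial markers of -0.02. None of these lists held a called gene by edgeR with all 20 libraries, and their summed ranges overlapped between groups. With vehicle 1 and treated 1 left out, the astrocyte marker Sox9 (-0.38, FDR = 0.0296) and the endothelial marker Kdr (-0.60, FDR = 0.0133) were called lower by edgeR. Markers of cortex, hippocampus and thalamus, tissue near the dissection, had sums of 159.7 to 208 CPM for vehicle and 135 to 213 CPM for treated and a median of -0.14 over 8 genes, and 1 of them, Neurod2, fell. Neurod6 and Slc17a7 of that list met the filter in too few libraries to be tested, and the sums leave them out. Slc17a7 had a mean of 7.24 CPM with vehicle and 0.48 CPM with treatment, and Neurod6 of 0.42 and 0.26 CPM. Since few libraries met the filter, these means can rest on a few libraries and do not describe a whole group. Among the 8 genes tested, Tbr1 had the lowest log2 value (-1.14 ± 0.585, FDR = 0.593 by edgeR), and 3 lay above 0. The part of tissue composition in the calls was not tested beyond the oligodendrocyte covariate.

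The genes called in PVN were then read in ARC and NTS, each fitted alone. Of the 71 rises, 60 of the 70 tested in ARC and 55 of the 71 tested in NTS had the same direction there, with median log2 fold changes of 0.17 and 0.10. Of the 17 falls, 13 of 15 and 12 of 17 did, with medians of -0.16 and -0.11. Over all genes, 53.4% had the same direction in PVN and ARC and 55.5% in PVN and NTS. With all libraries, none of the 88 and no other gene was called in ARC or NTS alone by edgeR (0.0% of 13484 and 0.0% of 13696 genes tested). Of the 88, 25 of 85 (29.4%) had an unadjusted p under 0.05 in ARC, where 7.2% of all genes did, and 31 (35.2%) in NTS, where 5.8% did. No other tool was run on those regions. These counts also rested on vehicle 1 and treated 1 of each region, the libraries that come first in deposited order in their groups. Without them 153 genes were called in ARC (1.14%), 16 of the 88 among them, and 162 in NTS (1.18%), 12 of the 88 among them, with p-values again too small. The 3 regions came from the same mice. Zbtb16 had log2 fold changes of 1.17 in ARC and 0.90 in NTS, Fkbp5 of 0.72 and 0.58, and Map3k6 of 0.69 and 0.99, against 1.13, 0.65 and 0.90 in PVN. Nptx2 had 0.27 in ARC and 1.36 in NTS. Without the libraries numbered 1 of each region all of these values were larger, with 1.55 and 1.16 for Zbtb16, 1.02 and 0.77 for Fkbp5, 0.95 and 1.14 for Map3k6, and 0.44 and 1.81 for Nptx2.

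Whether the treatment effect in PVN differed from that in another region was tested directly, in 1 fit of all 59 libraries. It differed from ARC in 7 of 14379 genes (0.0487%) and from NTS in 13 (0.0904%). The labels do not tie libraries to animals, so the fit took libraries of the 3 regions as independent although they shared mice. Cyp51 differed from both: PVN minus ARC was 0.57 ± 0.11, FDR = 0.0165 and PVN minus NTS 0.66 ± 0.11, FDR = 9.8e-04 on the log2 scale by edgeR. So did Tmem200a (0.66 ± 0.14, FDR = 0.0408, and 0.61 ± 0.14, FDR = 0.0453), Ift57 (0.52 ± 0.11, FDR = 0.0456, and 0.55 ± 0.11, FDR = 0.0220) and Fam222b (0.43 ± 0.09, FDR = 0.0456, and 0.43 ± 0.09, FDR = 0.0288). Against ARC alone, Tsc22d1 differed (0.51 ± 0.09, FDR = 0.00311) among the called genes. Against NTS alone, Prss23 (0.90 ± 0.20, FDR = 0.0453), Hs3st2 (1.64 ± 0.35, FDR = 0.0298), Fam117a (1.28 ± 0.25, FDR = 0.0134), Akap7 (0.62 ± 0.13, FDR = 0.0288), Zfp516 (0.73 ± 0.16, FDR = 0.0288) and Pde9a (0.52 ± 0.11, FDR = 0.0317) did. These 11 genes were all called higher in PVN, a choice that itself favours a larger value there. In that fit their log2 fold changes in the region they differed from ran from -0.41 (Fam117a in NTS) to 0.23 (Hs3st2 in NTS), most of them below 0.

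**Figure D5:**
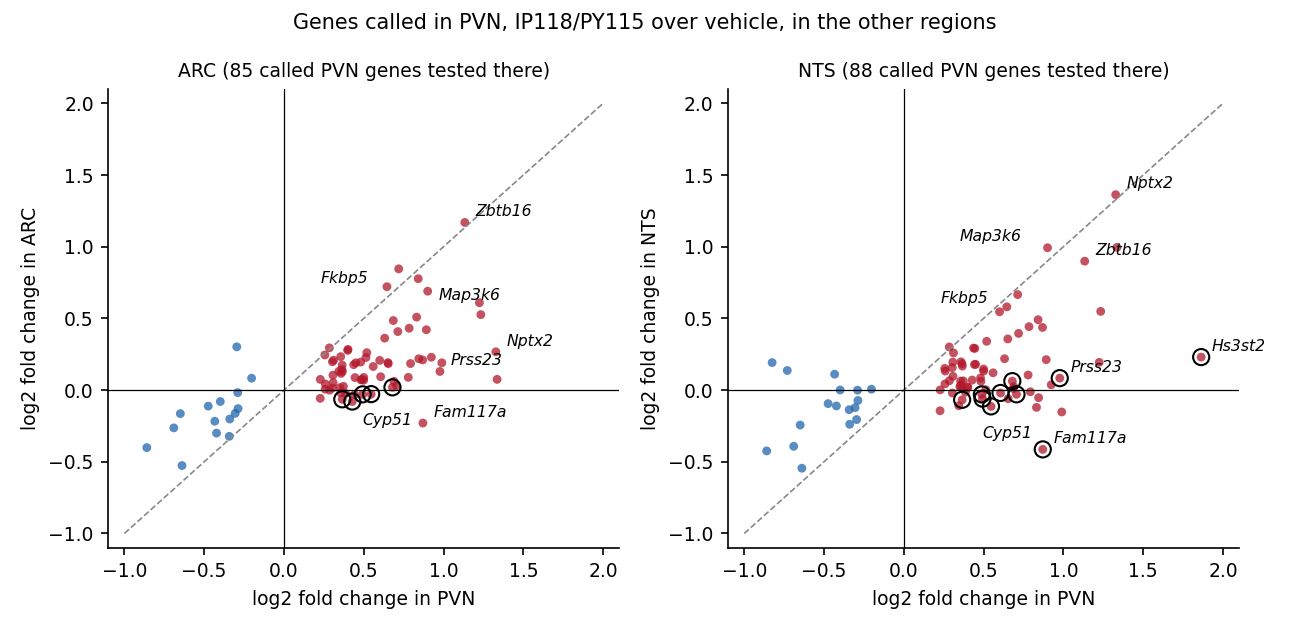
Log2 fold change of IP118/PY115 over vehicle in ARC (left) and NTS (right, vertical axes) against that in PVN (horizontal axes), for the genes called in PVN, 85 of them tested in ARC and 88 in NTS. Black rings mark the 5 and 10 genes whose effect differed between the regions at FDR under 0.05, and the dashed line marks equal effects. Most points lie nearer 0 on the vertical than on the horizontal axis, which the choice of genes by their PVN values favours.

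Genes not called in PVN itself that differed were Apobec1 (1.49 ± 0.30, FDR = 0.0279) and Appl2 (-0.45 ± 0.10, FDR = 0.0456) against ARC, and Rnf169 (0.74 ± 0.16, FDR = 0.04297) and Trh (-5.31 ± 1.17, FDR = 0.04297) against NTS, all by edgeR. Orc1 also differed from NTS (4.23 ± 0.78, FDR = 0.00778 by edgeR), but had too few counts to enter the PVN test, at 0 to 0.673 CPM with vehicle and 0.144 to 2.995 CPM with treatment. Its PVN log2 fold change in the joint fit was 2.53 ± 0.48, and its NTS value -1.70 ± 0.62. For Trh the PVN log2 fold change was -0.10 ± 0.38 and the NTS value 5.21 ± 1.06 in that fit, the latter with a wide error. With vehicle 1 and treated 1 of every region left out, 52 genes differed from ARC and 62 from NTS.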

How the data were processed

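Polyadenylated RNA of laser-captured PVN was sequenced, and the authors deposited raw counts per Ensembl gene and library. Per the submitters' processing notes, bcl2fastq 2.20.0.422 and STAR 2.5.2a were used with GRCm38. The read counter, its strand setting and the annotation release are not given in the sources used here (the kit marks strand, per the labels' protocols), so overlapping and antisense genes cannot be told apart. The table holds 21935 gene IDs, of which 21858 matched GENCODE M21 and 17884 had a count in PVN.

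Libraries were grouped by title and numbered in deposited order. Genes were kept by filterByExpr with its minimum count of 10 and minimum total of 15, libraries were scaled by TMM, and the PVN counts alone entered edgeR's robust quasi-likelihood test (edgeR 4.0.16, R 4.3.3; two-sided, FDR under 0.05). ARC and NTS were fitted alike, and differences between regions in 1 fit of 59 libraries. Values are log2 fold changes ± SE. Counting precision follows from the totals, and PCR duplicates cannot be told apart from separate molecules. Alternatives were limma-voom with sample weights (limma 3.58.1), DESeq2 1.42.0, library totals or RLE size factors, either no filter or at least 20 counts in 9 libraries, FDR 0.1, a test against a 1.2-fold change, covariates, 2 surrogate variables (sva 3.50.0) and left-out libraries. The test was also run on simulated counts. These held no outlying libraries, so that run says nothing on how single libraries moved the calls.

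The members and the 36 gene lists were chosen with earlier results of these data known, and role groups of called genes were made after their values were seen. Any called gene could be named. Values by library were given for the 15 called genes per direction of smallest p and a mean of at least 5 CPM. Also named were a fixed set of PVN hormone, receptor, activity and glucocorticoid genes, up to 2 members per list and up to 5 differences per region and direction. Other list members named, such as Nkx6-2, Dusp1 and Sqle, and Rnf169 were picked once their values had been seen, and a few genes are not reported here.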

Additional observations from a re-analysis of the deposited data

Results flagged for a closer look

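For the 168 genes named under the rule, each group of 10 PVN libraries was searched for a library far from the other 9 on the log2 scale. Such a library was found in 52 of 336 groups (15.5%), where chance gives about 1 in 20. Of the 52, 30 were treated 1, 11 vehicle 1, 9 vehicle 10, 1 vehicle 8 and 1 treated 3. The range of the other 9 libraries follows each value in parentheses.

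Treated 1 was the far low library among treated libraries for Cyp51 at 116 CPM (171 to 229), Tsc22d1 at 557 CPM (779 to 992), N4bp2l1 at 77.6 CPM (99.4 to 132), Setd7 at 126 CPM (167 to 215), Fam222b at 39.98 CPM (52.7 to 68.1), Usp54 at 53.1 CPM (61.2 to 70.7), Rhob at 207 CPM (271 to 319), Hs3st2 at 2.96 CPM (12.9 to 30.1), Rasl11b at 7.22 CPM (18.6 to 26.7) and Akap7 at 82.1 CPM (120.3 to 169). It was so too for Zfp711 at 30.5 CPM (36.8 to 41.2), Bcl2l1 at 119 CPM (136 to 156), Nptx2 at 9.24 CPM (26.4 to 52.2), Tpmt at 4.76 CPM (7.43 to 10.5), Fam107b at 16.5 CPM (40.5 to 72.9), Kcna5 at 93.6 CPM (130.2 to 161), Nmbr at 4.04 CPM (6.12 to 8.78), Fkbp5 at 53.9 CPM (81.3 to 128), Fam43a at 7.58 CPM (17.6 to 23.9) and Crh at 118 CPM (191 to 331). The rest were Arc at 10.5 CPM (28.9 to 68.9), Tsc22d3 at 79.1 CPM (135 to 164), Sgk1 at 17.7 CPM (45.7 to 57.1), Per1 at 41.7 CPM (92.5 to 126), Cdkn1a at 8.66 CPM (23.9 to 60.95), Maff at 3.897 CPM (8.12 to 13.4), Errfi1 at 31.8 CPM (66.6 to 86.3) and Nfkbia at 21.3 CPM (36.5 to 47.7). Treated 1 was the far high library for Nr3c1 at 243 CPM (138 to 184) and Cdh9 at 48.5 CPM (27.3 to 36.97).

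Vehicle 1 was the far high library among vehicle libraries for Stk38l at 58.8 CPM (31.9 to 44.1), Cyp51 at 196 CPM (108 to 132), Tsc22d1 at 863 CPM (559 to 673), Neto1 at 40.6 CPM (23.7 to 30.7), Cdkn1a at 51.4 CPM (6.22 to 17.6), Nfkbia at 49.8 CPM (22.3 to 34.2) and Il1r1 at 10.9 CPM (2.27 to 4.63). It was the far low library for Mtss1l at 175 CPM (231 to 277), Bahcc1 at 15.1 CPM (22.1 to 27.5), Bhlhe40 at 37.8 CPM (53.4 to 67.99) and Rgs16 at 9.24 CPM (15.9 to 22.2). Vehicle 10 was far above the others for Slc17a6 at 570.4 CPM (331 to 420.4), Stmn2 at 815 CPM (518 to 654), Sox9 at 34.4 CPM (20.1 to 24.7), Slc1a2 at 1046 CPM (604 to 806) and Aif1 at 10.7 CPM (1.85 to 4.03), and far below for Sipa1l2 at 50.3 CPM (64.8 to 86.3), Sik3 at 128 CPM (180.3 to 202), Chgb at 268 CPM (340.2 to 427) and Extl3 at 90.1 CPM (116 to 132). Vehicle 8 was far below for Cnksr2 at 22.4 CPM (34.1 to 48.9), and treated 3 far above the other treated libraries for Lss at 45.2 CPM (32.98 to 39). The cause was not tested.

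The treatment effect in PVN differed from that in another region, by a direct test, for 20 pairs of gene and region. Against ARC the log2 differences were Tsc22d1 0.51, Cyp51 0.57, Apobec1 1.49, Tmem200a 0.66, Fam222b 0.43, Appl2 -0.45 and Ift57 0.52. Against NTS they were Cyp51 0.66, Orc1 4.23, Fam117a 1.28, Ift57 0.55, Akap7 0.62, Fam222b 0.43, Zfp516 0.73, Hs3st2 1.64, Pde9a 0.52, Rnf169 0.74, Trh -5.31, Prss23 0.90 and Tmem200a 0.61.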

How the results depend on the processing

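All 88 called genes kept their direction under every alternative and every left-out library, and the calls did not keep their number. With 1 library left out, calls ran from 8 to 276, rises from 7 to 208 and falls from 1 to 76. The counts of calls, rises and falls were 209, 162 and 47 by DESeq2, 537, 328 and 209 by limma-voom, and 175, 138 and 37 at FDR 0.1. They were 152, 121 and 31 with all 59 libraries in 1 fit, and 429, 309 and 120 without vehicle 1 and treated 1. They were 6, 6 and 0 with log10 library total, 8, 8 and 0 with the oligodendrocyte covariate, 12, 11 and 1 without vehicle 8, 9 and 10, and 1, 1 and 0 against a 1.2-fold change. Without vehicle 3 and 8, the 2 smallest vehicle totals, they were 9, 9 and 0, an alternative chosen after seeing the data. With no filter they were 67, 56 and 11, with 66 of the 88 kept, and with 2 surrogate variables 129, 85 and 44, with 68 of the 88 kept. RLE size factors, library totals and the stricter filter gave 87, 86 and 89 calls. The cause of these differences was not tested, apart from the fewer libraries or the stricter test that some impose. Differences from ARC numbered 7, but 52 without the libraries numbered 1 of every region and 4 with no filter, and differences from NTS 13, but 62 without those libraries.

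The genes whose log2 sign turned were all uncalled: by limma-voom (Oxt -0.0408, Glp1r -0.12, Mc4r 0.0783, Npas4 -0.0302, Lum 0.0056), with the oligodendrocyte covariate (Oxt -0.0063, Glp1r -0.0499, Mc4r 0.0365), without vehicle 8, 9 and 10 (Oxt -0.0073, Trh 0.03, Glp1r -0.14, Mc4r 0.0324, Npas4 -0.0743), with log10 library total (Glp1r -0.0351), with 2 surrogate variables (Glp1r -0.0001, Mc4r 0.0375), without vehicle 3 and 8 (Glp1r -0.0369, Mc4r 0.0051, Calcr -0.0068), without vehicle 1 and treated 1 (Npy1r -0.0241, Mc4r 0.0432, Ttr 0.36), with library totals alone (Mc4r 0.0006), with no filter (Mc4r 0.0028). With 1 library left out the ranges were Avp -0.11 to 0.14, Glp1r -0.018 to 0.18, Npy1r -0.0292 to 0.0618, Mc4r -0.0287 to 0.0403, Npas4 -0.14 to 0.52, Ttr -0.86 to 0.28. The list median of the core clock genes turned to 0.0025 by limma-voom and 0.011 without vehicle 3 and 8. No paired analysis was possible because the labels give no replicate numbers shared between groups. Depth limits genes of a few CPM most, since the smallest vehicle library had 3964093 counts.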

Other observations

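No clock gene was called in PVN with all 20 libraries. Of 8 clock output genes, the PAR bZIP factor genes Dbp (-0.35 ± 0.10, FDR = 0.0942) and Hlf (-0.30 ± 0.08, FDR = 0.0609) and also Tef (-0.16 ± 0.05) had log2 values below 0, while Wee1 (0.30 ± 0.10), Usp2 (0.33 ± 0.16) and Tsc22d3 lay above, with none called by edgeR. Without vehicle 1 and treated 1, 3 were called in each direction. In the core clock, 7 of 17 genes lay above 0 (median -0.06). The repressor genes Nr1d1, at 61.2 to 97.3 CPM with vehicle (median 87.2) and 58.9 to 77.5 CPM with treatment (median 63.8) (-0.32 ± 0.08, FDR = 0.0648), and Bhlhe40, at 37.8 to 67.99 CPM with vehicle (median 57.5) and 31.6 to 64.02 CPM with treatment (median 40.5) (-0.39 ± 0.11, FDR = 0.0988), lay below by edgeR, and both were called lower without those 2 libraries.

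Several other lists held few or no calls. Log2 values were above 0 in 10 of 16 fasting and fatty-acid genes (median 0.10), among them Angptl4 (0.65 ± 0.21, FDR = 0.186) and Foxo1 (0.25 ± 0.07, FDR = 0.144) by edgeR, with none called. Members above 0 were 9 of 12, median 0.19, for feedback inhibitors of the MAP kinase pathway, Errfi1 among them (0.52 ± 0.13, FDR = 0.0818), and 5 of 12, median -0.03, for heat shock chaperones. For ephrins and their receptors they were 8 of 19, median -0.02, with Epha2 higher and Ephb3 lower, and for heparan sulfate enzymes 14 of 22, median 0.04, with Hs3st2 called. For cadherins they were 8 of 15, median 0.04, and for YAP and matricellular genes 8 of 10, median 0.05, with Cdh6 and Ccn2 called. Markers of the suprachiasmatic nucleus, which lies near the PVN, were above 0 in 2 of 5, median -0.32, and Rgs16 of that list was at 17.1 ± 3.37 CPM (vehicle) and 11.8 ± 3.86 CPM (treated) (-0.53 ± 0.16, FDR = 0.171 by edgeR).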
